A study of Mus musculus with 2 samples.

Results

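The S phase and mitosis genes are a list of 50 proliferation genes out of the 31053 genes counted in heart B cells. They were chosen for their known roles in copying DNA and dividing the chromosomes, but with earlier results of these data known. Of these, 20 act in S phase and 30 in mitosis, and all 50 had at least 50 UMIs (unique molecular identifiers, each marking 1 captured mRNA molecule) in both libraries together. A cell that divides first loads helicases onto its replication origins, makes deoxynucleotides and copies DNA and chromatin. It then builds a spindle, condenses its chromosomes and destroys its mitotic cyclins. Transcripts of the second set peak later in the cycle than those of the first, and resting mature B cells are known to hold little of most of them, whereas pre-B cells, germinal center B cells and self-renewing B1 cells are known to divide.

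The study sorted live B cells from hearts of wild-type C57BL6/J mice at 2 ages and sequenced 1 droplet library per age with 3′ chemistry. The neonatal library came from mice of both sexes at 2 weeks and the adult library from male mice at 8 weeks, each pooled from 6 mice, with no other treatment named. Both had been stained with TotalSeq antibodies to CD11b, CD21 and CD23, whose rows were not used. Age, library and the share of female mice changed together and cannot be told apart, and no test across mice was possible.

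Cells were droplets with at least 2000 gene UMIs, at most 10% mitochondrial UMIs and at least 1 UMI of Cd79a, which encodes a signaling chain of the B cell receptor. The rule kept 2077 neonatal cells with 16403180 UMIs (median 6000 per cell) and 3611 adult cells with 34623240 UMIs (median 6131). It left out 14 neonatal and 4 adult droplets for want of Cd79a alone. The libraries shared 2 cell barcodes. The members had 17915 UMIs in the neonatal and 34722 in the adult cells. Levels (CPM) are UMIs of a gene in 1000000 gene UMIs of the cells, and log2 ratios are adult over neonatal. All intervals are exact 95% intervals that cover counting error only, neither the spread between mice nor that between cells. Over the 10703 genes with at least 50 UMIs the median log2 ratio was -0.13.

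The S phase genes had almost the same summed level at both ages, 454 CPM in the neonatal and 453 CPM in the adult library, a log2 ratio of -0.00 (-0.04 to 0.04). The mitosis genes summed to 638 CPM in the neonatal and 549 CPM in the adult library, a log2 ratio of -0.22 (-0.25 to -0.18). Gene by gene the sets lay on different sides of 0. Of the 20 S phase genes, 15 were higher in the adult library, with a median log2 ratio of 0.20, and of the 30 mitosis genes 28 were higher in the neonatal library, with a median of -0.49. Of all genes tested, 64.3% were higher in the neonatal library. The counting interval lay above 0 for 10 S phase genes and below 0 for 5. It lay below 0 for 18 mitosis genes and above 0 for none. Over all genes tested, 18.1% of intervals lay above 0 and 42.3% below. These are counts of intervals over the genes of 1 pair of libraries and not of changed genes. A log2 ratio at or past 1 in size was met by 1 member, Ccnb1, in the neonatal direction, where 3.96% of all genes tested met it, and by no member in the adult direction, where 3.25% of all genes met it. The direction of the mitosis genes depended on the deepest droplets. Without the 2% of droplets with most UMIs in each library, 42 neonatal and 73 adult, the summed log2 ratio of the mitosis genes was 0.12 and their median 0.26, and the summed log2 ratio of the S phase genes was 0.12. Among the genes that were then higher in the adult library were Mki67 (0.67), Top2a (0.53), Nusap1 (0.49), Hmmr (0.47), Cdk1 (0.28), Ccna2 (0.26), Kif11 (0.25) and Cenpf (0.12). A sum cannot tell fewer cells with these transcripts from less RNA per cell.

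**Figure D1:**
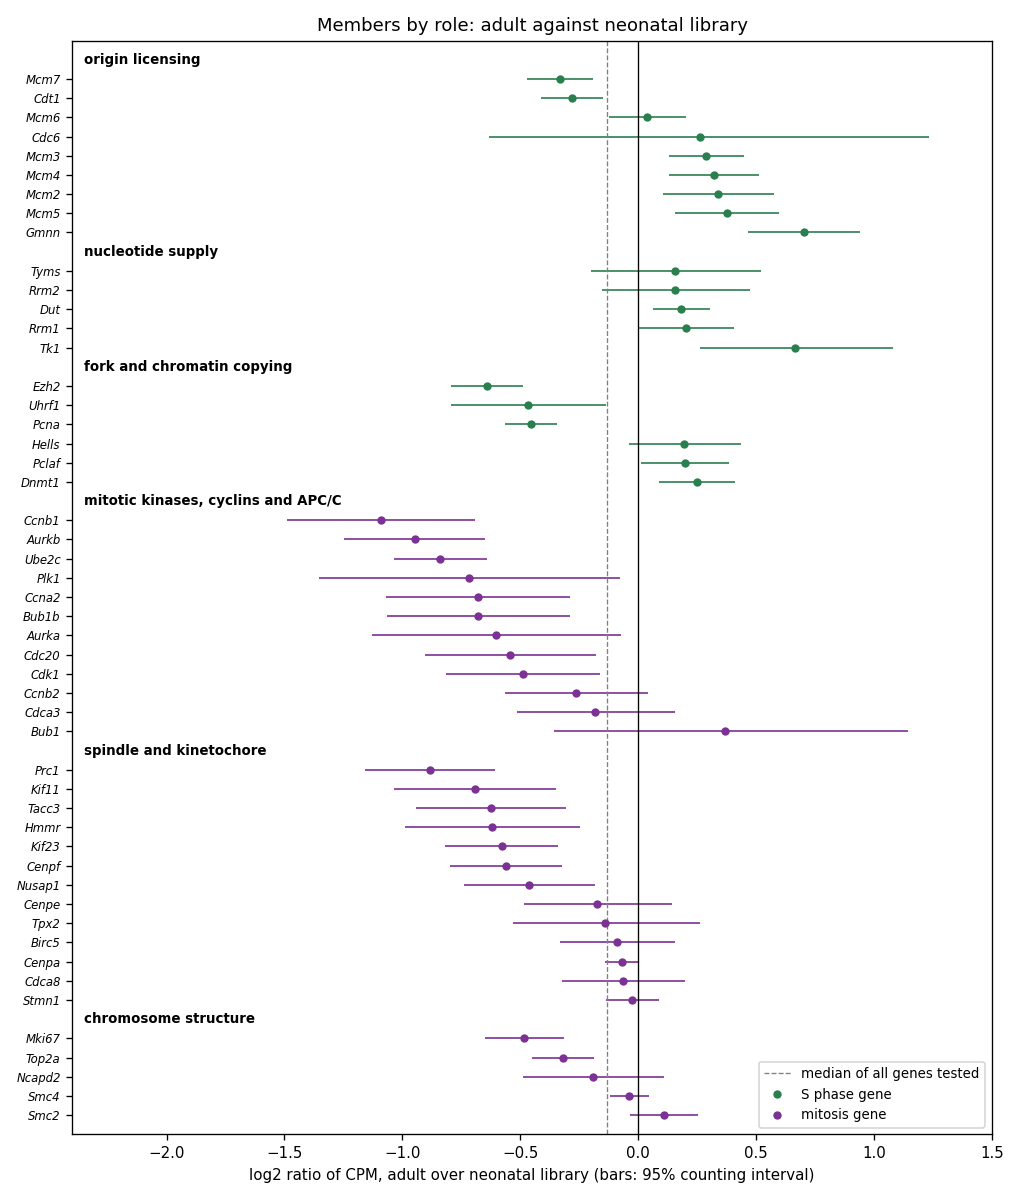
Log2 ratio of CPM, adult over neonatal library, for each of the 50 members, grouped by role, with 95% counting intervals as bars and the median of all genes tested as a dashed line. Most S phase genes lie right of 0 and most mitosis genes left of it, from Ccnb1 at -1.09 to Gmnn at 0.70.

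The 9 origin licensing genes summed to 198 CPM in the neonatal and 208 CPM in the adult library. The MCM helicase subunits, which open the DNA at each origin, did not share a direction. Mcm5 had 14.1 CPM in the neonatal and 18.3 CPM in the adult library (log2 ratio 0.37, 0.16 to 0.60). Mcm2 (0.34), Mcm4 (0.32) and Mcm3 (0.29) had ratios close to it, and their intervals also lay above 0. Mcm6 was at 27.1 and 27.9 CPM, and its interval held 0. Mcm7, in contrast, was lower in the adult library, at 40.4 and 32.1 CPM (-0.33, -0.47 to -0.19). Cdt1, which loads the helicase, was at 45.1 and 37.1 CPM (-0.28, -0.41 to -0.15), whereas Gmnn, the geminin that blocks Cdt1 after S phase has begun, was at 11.6 and 18.9 CPM (0.70, 0.47 to 0.94). Gmnn had the highest ratio of the 50 members. Cdc6, the other loader, had only 15 neonatal and 38 adult UMIs, and no difference was detectable at this depth (0.26, -0.63 to 1.23).

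All 5 nucleotide supply genes were higher in the adult library, and their sum went from 82.8 to 95.8 CPM (0.21, 0.12 to 0.30). Tk1, the thymidine kinase, was at 4.08 and 6.47 CPM (0.66, 0.26 to 1.08), and Dut, which removes dUTP, at 48.1 and 54.6 CPM (0.18, 0.06 to 0.30). The subunits of ribonucleotide reductase had ratios of 0.20 (Rrm1) and 0.16 (Rrm2), and thymidylate synthase (Tyms) had 0.16. The intervals of Rrm2 and Tyms held 0.

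The 6 genes of fork and chromatin copying were split 3 to 3. Pcna, the sliding clamp of the DNA polymerases, was at 67.6 CPM in the neonatal and 49.3 CPM in the adult library (-0.46, -0.57 to -0.35). Ezh2, the histone methyltransferase that early B cells are known to need, was at 37.7 and 24.1 CPM (-0.64, -0.79 to -0.49), the lowest ratio among the S phase genes. Uhrf1, which brings Dnmt1 to copied DNA, was at 7.99 and 5.78 CPM (-0.47). Dnmt1, the maintenance DNA methyltransferase, went the other way, at 27.3 and 32.4 CPM (0.25, 0.09 to 0.41). The PCNA-binding factor Pclaf and the chromatin remodeler Hells both had a ratio of 0.20, with 0 inside the interval of Hells.

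Among the 6 role groups, the summed log2 ratio was lowest for the 12 mitotic kinases, cyclins and regulators of the anaphase-promoting complex (APC/C), the ligase that destroys mitotic proteins. They summed to 91.0 CPM in the neonatal and 58.8 CPM in the adult library (-0.63, -0.73 to -0.53). Ccnb1, the cyclin B1 that drives entry into mitosis, was at 6.58 and 3.09 CPM (-1.09, -1.49 to -0.69). Its partner Cdk1 was at 8.11 and 5.78 CPM (-0.49), and the related cyclins Ccna2 and Ccnb2 had ratios of -0.68 and -0.26. Aurkb, the kinase that corrects wrong spindle attachments, was at 11.0 and 5.69 CPM (-0.95, -1.25 to -0.65). The other mitotic kinases Aurka (-0.60) and Plk1 (-0.72) and the checkpoint kinase Bub1b (-0.68) lay between these values. Ube2c, the ubiquitin-conjugating enzyme of the APC/C, was at 23.8 and 13.3 CPM (-0.84, -1.04 to -0.64), and its activator Cdc20 at 6.65 and 4.56 CPM (-0.54). Cdca3 (-0.18) and Bub1 (0.37) had intervals that held 0, as did Ccnb2, and Bub1 had only 22 neonatal and 60 adult UMIs.

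All 13 spindle and kinetochore genes were higher in the neonatal library, as were 64.3% of all genes tested, and 6 of the 13 intervals held 0. Prc1, which bundles the central spindle, was at 12.7 and 6.87 CPM (-0.88, -1.16 to -0.61). The motor Kif11 (-0.69), the spindle proteins Tacc3 (-0.63) and Hmmr (-0.62), the cytokinesis motor Kif23 (-0.58), the kinetochore protein Cenpf (-0.56) and the spindle protein Nusap1 (-0.46) followed. Cenpa, the histone of centromeres, was the member with most UMIs, 2436 neonatal and 4898 adult, and differed little, at 149 and 141 CPM (-0.07, -0.14 to 0.00). Stmn1, which depolymerizes microtubules, was at 57.1 and 56.1 CPM (-0.02). Cenpe, Tpx2, Birc5 and Cdca8 had ratios between -0.17 and -0.07. Among the 5 chromosome structure genes, the proliferation marker Mki67 was at 29.4 and 21.03 CPM (-0.48, -0.65 to -0.31) and the topoisomerase Top2a at 45.8 and 36.7 CPM (-0.32, -0.45 to -0.19). The condensin genes Smc4 (-0.04), Smc2 (0.11) and Ncapd2 (-0.19) had intervals that held 0.

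Genes of the same processes outside the list were read next. Of 25 other replication genes, 23 were tested, with a median log2 ratio of 0.03. Those with most UMIs were Slbp (0.14), Pold1 (-0.18) and Rfc3 (0.08). Of 37 other mitosis genes, 34 were tested, with a median of -0.30 and 26 higher in the neonatal library, where 64.3% of all genes tested lay. Their 3 genes with most UMIs were the lamin gene Lmnb1 (-0.40), the phosphatase gene Cdc25b (-0.45) and Cks2, which binds cyclin-dependent kinases (-1.16). The other 8 of those tested were higher in the adult library, Pttg1 (0.82, 0.65 to 0.99) among them. Of 20 genes of cycle entry and its brakes, 19 were tested, with a median of -0.26. The antiproliferative gene Btg1 was at 2467 CPM in the neonatal and 1508 CPM in the adult library (-0.71) and the quiescence factor Klf2 at 1261 and 1649 CPM (0.39). Btg2 was at 681 and 597 CPM (-0.19).

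These levels are sums over cells, and they were unevenly spread. To count the members in each cell at equal depth, each cell was thinned at random to 2000 UMIs. At that depth 77.1% of neonatal and 72.8% of adult cells held a UMI of at least 1 member, but mostly of 1 to 3, and the number of cells fell steeply up to 5 or 6 members. A thin tail of cells reached up to 26 members among neonatal and 29 among adult cells. At least 5 members were held by 37 neonatal cells, 1.78% (1.26 to 2.45%), and by 73 adult cells, 2.02% (1.59 to 2.54%), so that the shares were not distinguishable. A second random draw gave 39 and 72 cells, but only 19 neonatal and 53 adult cells were chosen in both draws, so that this class mixed the edge of the bulk with the tail. At least 10 members were held by 14 neonatal cells, 0.674% (0.369 to 1.13%), and by 29 adult cells, 0.803% (0.538 to 1.15%), and 13 and 27 of these were chosen again in the second draw. The shares of the libraries were again not distinguishable. As sequenced, 34.3% of neonatal and 33.6% of adult cells held at least 5 members, values that follow the depth of each cell. Free RNA, taken from near-empty droplets with a mean of 55.9 neonatal and 92.0 adult UMIs, held the S phase genes at 448 and 457 CPM and the mitosis genes at 491 and 453 CPM. If each cell carried as many free UMIs, it would show a mean of 0.00812 S phase and 0.00890 mitosis genes in the neonatal and 0.0141 and 0.0139 in the adult library, against 0.750 and 0.740 and 0.706 and 0.675 found.

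**Figure D2:**
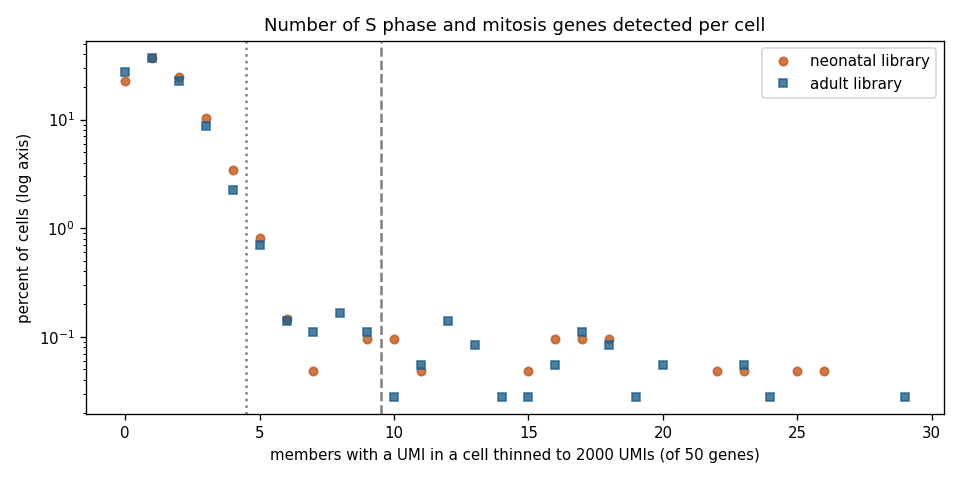
Percent of cells (log axis) by the number of members with a UMI after thinning to 2000 UMIs, for the neonatal (circles) and adult (squares) library. Dotted and dashed lines mark at least 5 and at least 10 members, and the tail past the dashed line holds 14 neonatal and 29 adult cells.

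The cells with at least 10 members were deeper than the others. Their median was 28515.5 UMIs in the neonatal library against 5986.5 in cells with under 5 members, and 26157 against 6039 in the adult library. Among the 42 deepest neonatal droplets were 8 of the 14 cells, and among the 73 deepest adult droplets 6 of the 29. No doublet caller was run, and the part of doublets was not tested. After thinning, cells with at least 10 members showed a median of 963 genes in the neonatal library against 935 in cells with under 5, and 932 against 867 in the adult library. Most markers of other cell types were at or near 0 in them. In the 14 neonatal cells the 6 T cell markers summed to 8 UMIs with Cd3e, Trbc1, Trbc2 and Cd8a at 0, the 7 macrophage markers to 8 UMIs with Lyz2, C1qa, C1qb, Csf1r and Adgre1 at 0, and those of granulocytes, NK cells, cardiomyocytes and fibroblasts to 0. Cd3g (7 UMIs, 5.77-fold, 2.21 to 12.8) and Mrc1 (5 UMIs, 5.54-fold, 1.70 to 14.1) were higher than in the other neonatal cells. The T cell list was at 21.01 CPM against 9.96 CPM in cells with under 5 members and the macrophage list at 21.01 against 96.2 CPM. The part of these cell types was not tested. In the 29 adult cells T cell and macrophage markers summed to 1 and 7 UMIs and the same 4 lists to 0. Endothelial markers, chiefly Pecam1, were at 68.3 CPM in the neonatal and 67.0 CPM in the adult cells, below the 142 and 120 CPM of cells with under 5 members.

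These few cells held much of the members' RNA. The 14 neonatal cells held 15.1% of the S phase and 40.9% of the mitosis UMIs of their library, and the 29 adult cells 20.8% and 35.2%. Their summed levels were 2964 CPM of S phase and 11243 CPM of mitosis genes in the neonatal and 4048 and 8307 CPM in the adult library, a description, since the members chose the cells. In cells with under 5 members the levels were 372 and 369 CPM in the neonatal and 328 and 336 CPM in the adult library. With the cells with at least 10 members left out, the summed log2 ratio was -0.10 for the S phase and -0.08 for the mitosis genes, and the median of the mitosis genes was -0.13, near that of all genes.

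Each member was then measured in cells chosen by the other 49. Against the other cells of the library, cells with at least 10 of the other members had a median fold over the 50 members of 36.3 (neonatal) and 43.5 (adult). With at least 5 of the others, the medians were 26.4 and 33.8. The mitosis genes had the higher folds, with a median of 90.1 neonatal and 80.2 adult, and the S phase genes had 7.74 and 10.6. For 49 of 50 members the interval lay above 1 in both libraries. Of all genes with at least 20 UMIs, compared between cells with at least 10 members and the rest, 13.9% had an interval above 1 and 13.3% below in the neonatal library, and 17.3% and 12.8% in the adult library. The exception was Cdt1, at 26.3 CPM in the neonatal cells against 45.5 CPM in the others (0.577-fold, 0.276 to 1.07) and at 34.7 against 37.1 CPM in the adult library (0.936-fold, 0.620 to 1.36). Cenpa was only 2.51-fold (2.09 to 2.98) and 2.21-fold (1.94 to 2.51) higher, and these cells held only 5.62% and 5.0% of its UMIs. After thinning, Cdt1 was present in 9.48% of neonatal and 7.98% of adult cells and Cenpa in 25.9% and 23.5%. In the near-empty droplets Cdt1 was at 76.3 and 62.6 CPM, above its levels in the cells. Cenpa was at 159 and 146 CPM there, close to its 149 and 141 CPM over all cells. In the cells with at least 10 of the other members Cenpa was at 360 and 304 CPM. The part of free RNA in the spread of these 2 genes was not tested.

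The folds of the other S phase genes ran from moderate to steep. Dnmt1 was 2.94-fold higher in the neonatal and 4.54-fold in the adult cells, and Pcna 2.89-fold and 6.12-fold, while the MCM genes ranged from 3.13-fold (Mcm4) to 9.24-fold (Mcm5) in the neonatal and from 4.64-fold to 9.28-fold, for the same genes, in the adult library. Dut (5.59 and 10.2), Ezh2 (8.70 and 11.8), Rrm1 (9.79 and 11.2), Hells (6.78 and 10.9) and Gmnn (12.6 and 13.0) were close to these. Pclaf was at 646 against 6.48 CPM in the neonatal and at 802 against 6.14 CPM in the adult library, 99.8-fold (78.8 to 127) and 131-fold (111 to 154). Rrm2, the subunit of ribonucleotide reductase that is made only in dividing cells, was 89.5-fold and 177-fold higher, in contrast to its partner Rrm1. Tyms (45.8 and 43.9), Cdc6 (48.1 and 57.7), Tk1 (22.0 and 20.7) and Uhrf1 (15.5 and 37.2) lay between.

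Among the mitosis genes, Ube2c was at 1047 against 2.43 CPM in the neonatal and 499 against 2.69 CPM in the adult library, 431-fold (309 to 617) and 186-fold (147 to 236). Ccna2 was 473-fold and 243-fold higher, Hmmr 333-fold and 344-fold, Cenpf 332-fold and 230-fold and Cdk1 331-fold and 178-fold. Birc5, the survivin of the chromosomal passenger complex, was 218-fold and 171-fold higher. All 22 neonatal UMIs of Bub1 lay in such cells, at least 309-fold higher than a floor of 3 counts in the others, and Bub1 was 126-fold higher in the adult library. Mki67 was at 957 against 10.0 CPM and at 653 against 5.97 CPM, 95.5-fold (78.8 to 116) and 109-fold (92.7 to 129). Top2a was at 1479 against 18.6 CPM and at 1071 against 14.1 CPM. Stmn1 was 26.8-fold and 47.4-fold higher, and Smc4 and Smc2, which were present in many other cells, 7.67-fold and 13.7-fold in the neonatal and 5.41-fold and 10.8-fold in the adult library. For Ccnb1, whose ratio between the libraries was lowest, 77.8% of the neonatal and 66.4% of the adult UMIs lay in these cells.

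**Figure D3:**
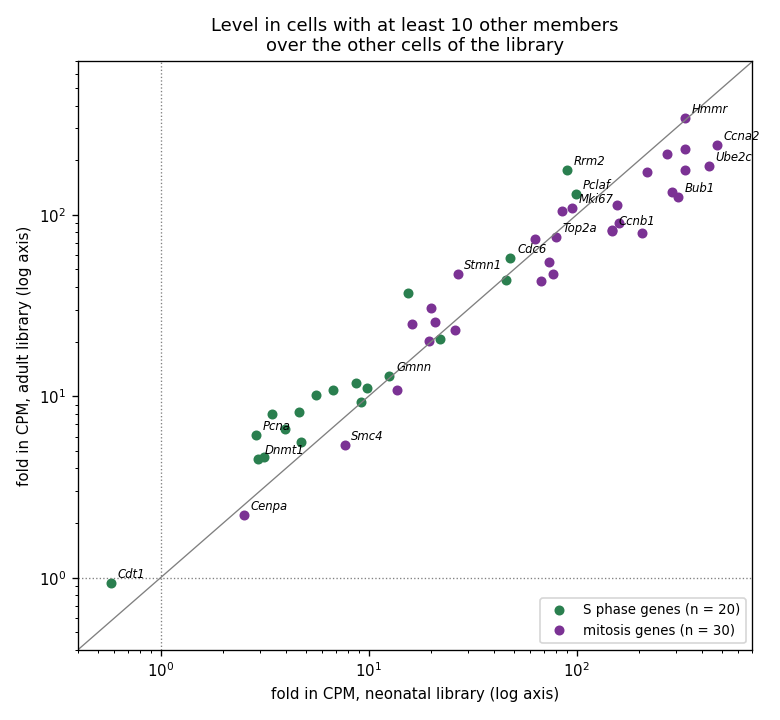
Fold in CPM of each member in cells with at least 10 of the other members over the other cells, neonatal library on the x axis and adult library on the y axis (both log axes), with equal folds on the diagonal. Mitosis genes reach past 100-fold, most S phase genes lie below 20-fold, and Cdt1 lies below 1 on both axes.

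Other genes followed the same cells. Of the other mitosis genes with at least 20 UMIs in a library, the interval lay above 1 for 32 of 33 in the neonatal and 35 of 36 in the adult library (median 35.1-fold and 38.0-fold), and of the other replication genes for 20 of 22 and 25 of 25 (8.82-fold and 11.2-fold). The 19 cycle entry and brake genes had a median fold of 0.88 and 1.12, with 7 intervals above 1 in each library and 6 (neonatal) and 7 (adult) below. Over all genes with at least 20 UMIs the median fold was 0.87 and 0.95. Of their intervals, 13.9% lay above 1 and 13.3% below in the neonatal library, and 17.3% and 12.8% in the adult library. Among the inhibitors of cyclin-dependent kinases, Cdkn2c (14.4-fold and 5.32-fold), Cdkn1a (4.88-fold and 4.73-fold) and Cdkn2d (2.04-fold and 2.72-fold) were higher. The fold of Cdkn1b, the inhibitor with most UMIs on that list (2257 neonatal and 4510 adult), is not given here. The named genes therefore do not speak for all inhibitors. Btg1 was lower in cells with at least 10 members, at 407 against 2516 CPM in the neonatal (0.162-fold) and 500 against 1532 CPM in the adult library (0.326-fold). Klf2 was at 872 against 1271 CPM and 700 against 1671 CPM.

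Promoters were compared with the letters known from each set, since the members moved together over cells. The E2F factors, which turn on S phase genes, bind letters such as TTTCCCGC, TTTGGCGC, TTTCGCGC, TTCCCGCC and TTGGCGCC. The cell cycle genes homology region (CHR), read by the DREAM and MuvB complexes, is TTTGAA or TTCGAA, and NF-Y binds CCAAT. Both strands were searched from 250 bases before to 50 after the start, in RefSeq windows of GRCm38.p6 that were found for 43 of 50 members. Some E2F letters overlap each other, so only presence was counted. E2F letters were present for 12 of 18 S phase genes (66.7%) and 3 of 25 mitosis genes (12.0%), against 4.65% of the 27025 symbols in the table. CHR letters were present for 3 of 18 S phase genes (16.7%) and 20 of 25 mitosis genes (80.0%), against 21.7% of all symbols. CCAAT was present for 12 of 18 and 22 of 25, against 41.1%. The shares describe these windows and show no binding. Within S phase, E2F letters were present for 6 of 7 origin licensing genes and 5 of 6 genes of fork and chromatin copying but for 1 of 5 nucleotide supply genes, and Rrm2, Tyms, Tk1 and Dut had none. The 250 bases before the start are shown 5′ to 3′ with the letters in capitals. They are of the genes with most UMIs whose letters lie there, with as many genes without the letters. Genes whose 250 bases overlap an annotated exon on the same strand were passed over, and the other strand was not checked for exons. Mcm6 (chr1:128359706-128359955, minus strand) and Rrm1 (chr7:102441445-102441694, plus) hold E2F letters and Mcm2 (chr6:88898781-88899030, minus) and Tyms (chr5:30073626-30073875, minus) none.
Mcm6: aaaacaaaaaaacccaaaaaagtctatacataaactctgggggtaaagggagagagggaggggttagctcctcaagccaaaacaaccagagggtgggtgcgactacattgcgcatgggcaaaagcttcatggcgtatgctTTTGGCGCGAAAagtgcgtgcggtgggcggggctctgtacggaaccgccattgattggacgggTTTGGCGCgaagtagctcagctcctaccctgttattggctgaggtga
Rrm1: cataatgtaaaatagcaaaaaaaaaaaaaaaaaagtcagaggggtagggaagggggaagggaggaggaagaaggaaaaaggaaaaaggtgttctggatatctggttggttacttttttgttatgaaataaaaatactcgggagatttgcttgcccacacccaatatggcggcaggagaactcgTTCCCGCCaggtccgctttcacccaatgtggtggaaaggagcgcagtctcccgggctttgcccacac
Mcm2: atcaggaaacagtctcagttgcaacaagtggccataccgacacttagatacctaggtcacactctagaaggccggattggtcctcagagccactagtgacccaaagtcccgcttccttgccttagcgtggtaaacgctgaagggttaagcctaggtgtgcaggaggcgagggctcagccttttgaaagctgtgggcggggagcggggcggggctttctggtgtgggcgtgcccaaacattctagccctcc
Tyms: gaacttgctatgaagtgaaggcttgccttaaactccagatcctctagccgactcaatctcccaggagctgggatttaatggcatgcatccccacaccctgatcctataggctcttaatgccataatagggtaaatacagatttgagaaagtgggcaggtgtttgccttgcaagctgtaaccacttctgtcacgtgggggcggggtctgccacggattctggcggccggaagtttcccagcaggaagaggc

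Top2a (chr11:99024190-99024439, minus strand) and Smc2 (chr4:52438971-52439220, plus) hold CHR letters, Top2a at 4 places that begin 179, 140, 120 and 23 bases before the start. Birc5 (chr11:117848987-117849236, plus) and Nusap1 (chr2:119618048-119618297, plus) hold none.
Top2a: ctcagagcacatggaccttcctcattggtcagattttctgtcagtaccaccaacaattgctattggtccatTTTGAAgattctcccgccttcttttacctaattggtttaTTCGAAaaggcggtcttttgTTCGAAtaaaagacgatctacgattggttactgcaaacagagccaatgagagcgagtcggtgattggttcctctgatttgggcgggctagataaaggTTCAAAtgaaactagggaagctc
Smc2: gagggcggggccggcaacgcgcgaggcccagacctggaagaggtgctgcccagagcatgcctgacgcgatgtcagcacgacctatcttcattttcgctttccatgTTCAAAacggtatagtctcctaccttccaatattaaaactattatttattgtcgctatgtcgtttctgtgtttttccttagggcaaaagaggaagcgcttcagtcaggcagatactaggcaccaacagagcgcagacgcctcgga
Birc5: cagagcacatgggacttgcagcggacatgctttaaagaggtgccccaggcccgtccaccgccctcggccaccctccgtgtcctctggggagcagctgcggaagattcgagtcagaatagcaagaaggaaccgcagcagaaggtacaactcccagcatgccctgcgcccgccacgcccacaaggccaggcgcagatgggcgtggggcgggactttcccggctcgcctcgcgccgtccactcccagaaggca
Nusap1: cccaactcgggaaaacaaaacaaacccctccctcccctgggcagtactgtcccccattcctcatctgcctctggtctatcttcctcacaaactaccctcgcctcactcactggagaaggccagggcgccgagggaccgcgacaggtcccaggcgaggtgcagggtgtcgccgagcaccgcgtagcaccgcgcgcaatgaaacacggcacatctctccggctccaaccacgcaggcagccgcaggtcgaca
Whether the folds of members differ with the presence of the letters was not tested. In the neonatal cells with at least 10 other members, Top2a was 79.6-fold and Smc2 13.7-fold higher, and Birc5 218-fold and Nusap1 156-fold.

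S phase and mitosis genes were weighed against each other in each cell with at least 10 members. In the neonatal library 12 of 14 cells (85.7%, 57.2 to 98.2%) held more mitosis than S phase genes, and in the adult library 19 of 29 (65.5%, 45.7 to 82.1%). The intervals overlap, and the difference was within counting error. The list holds more mitosis than S phase genes, which weighs on both shares alike. The extremes were adult cells with 18 mitosis and 0 S phase genes or with 2 mitosis and 9 S phase genes. In the neonatal library the cell with most members held 23 mitosis and 3 S phase genes, and the cell with most S phase genes 9 of them beside 2 mitosis genes. When the cut was set at 3 genes of a set, S phase genes alone were held by 2.70% (2.04 to 3.49%) in the neonatal library against 2.94% (2.41 to 3.54%) in the adult one, mitosis genes alone by 1.49% and 1.55%, and both by 0.481% and 0.775%. None of these pairs was distinguishable.

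The subset genes of the B cells with many members differed between the ages, as did those of cells with under 5 members. Vpreb3 is used as a marker of newly formed B cells. It was also held, as sequenced, by 71.7% of neonatal and 57.0% of adult cells with under 5 members. Cr2 and Fcer2a encode CD21 and CD23, which are gained as B2 cells mature, and Bhlhe41 is a transcription factor of B1 cells. As sequenced, 0 of the 14 neonatal cells held a UMI of Cr2 or Fcer2a, which allows a share of up to 23.2%, although they were deep. In neonatal cells with under 5 members, 16.7% held Cr2 and 44.9% Fcer2a at a lower depth. A floor of 3 counts in the 14 cells is 7.88 CPM. Fcer2a was at 175 CPM in the rest of the library, hence at least 22.2-fold higher there, and Cr2 was at 28.1 CPM, at least 3.57-fold higher. In the adult library Cr2 was present in 21 of 29 cells (72.4%), Fcer2a in 17 (58.6%), and either of them in 25. Of adult cells with under 5 members, at a lower depth, 46.7% held Cr2 and 73.0% Fcer2a. Both were held by 37.8% of those, Cr2 alone by 8.96% and Fcer2a alone by 35.2%, so that most of them held either gene too. Both genes were still lower than in other adult cells, with Fcer2a at 101 CPM against 286 CPM in cells with under 5 members and Cr2 at 83.1 against 122 CPM.

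**Figure D4:**
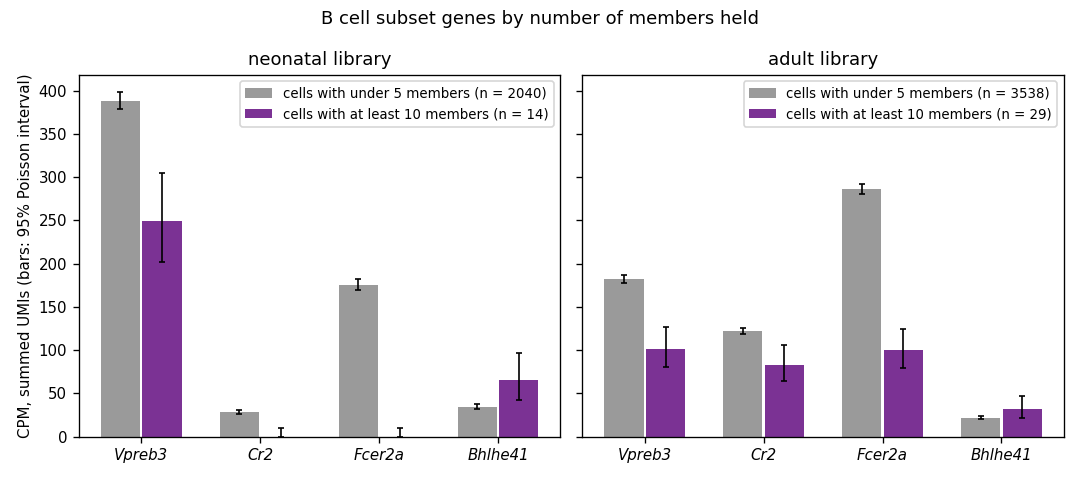
CPM of Vpreb3, Cr2, Fcer2a and Bhlhe41, summed over cells with under 5 (grey) and at least 10 (purple) members of each library, with 95% Poisson intervals as bars. Deeper cells weigh more in these sums. Neonatal cells with at least 10 members had 0 UMIs of Cr2 and Fcer2a, and the adult ones had both at lower levels than cells with under 5.

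Vpreb3 and Bhlhe41 divided the neonatal cells. Vpreb3 without Bhlhe41 was held by 5 cells, Bhlhe41 without Vpreb3 by 7, both by 1 (with 1 and 3 UMIs) and neither by 1. The 5 Vpreb3 cells had between 5853 and 14587 UMIs, with 9 to 42 UMIs of Vpreb3. All 5 also held the immature B cell genes Sox4 (40 UMIs) and Cd93 (8 UMIs), 4 held the recombinase gene Rag1 (10 UMIs) and 3 the interleukin receptor gene Il7r (9 UMIs), and none held the B1 markers S100a6, Zbtb32 or Plscr1, although 2 held Ahnak (3 UMIs) and 2 Cd9 (2 UMIs). The surrogate light chain genes Igll1 and Vpreb1 and Dntt, which mark earlier pre-B and pro-B cells, were at 0, as were Rag2 and Erg of the same list. Igll1, Rag2 and Dntt were at 0 in all 2077 neonatal cells, and Vpreb1 had 7 UMIs in those with under 5 members. These zeros therefore place the cells at no stage. The 7 Bhlhe41 cells had between 14242 and 49154 UMIs. All 7 held Cd9, Plscr1 and Ahnak and 6 of 7 S100a6 and Zbtb32, with 906 UMIs of S100a6, and Sox4 and Cd93 had 1 UMI each. Other genes of the transitional list were present in all 7, with Ly6d at 1849.5 CPM against 1072 CPM in the Vpreb3 cells and Cd24a at 234 against 1090 CPM. Rag1 and Il7r were at 0 in them. The Vpreb3 cells were thus shallower than most Bhlhe41 cells, and a gene at few UMIs is missed more often in them. Bhlhe41 was found at 1 to 6 UMIs per cell. After thinning to 2000 UMIs it was present in 0 of 14 cells in 1 draw, where a mean of 1.32 cells (9.46%) is expected over draws, against 6.00% of cells with under 5 members. The level gives the comparison without thinning. Bhlhe41 was at 65.6 CPM in the 14 cells (42.5 to 96.9) and 34.6 CPM in cells with under 5 members. Of the 8 B1 markers, 6 had an interval above 1 against the rest of the library, Cd9 at 4.33-fold and Zbtb32 at 3.61-fold among them, and all 6 follicular markers had an interval below 1, with Ighd at 0.120-fold. Over all genes with at least 20 UMIs, 13.9% had an interval above 1 and 13.3% below. Of the 6 transitional markers 2 had an interval above 1 and 3 below. Vpreb3 was among the latter, at 249 against 384 CPM (0.649-fold, 0.524 to 0.794). In the adult library it was at 102 against 179 CPM (0.568-fold, 0.451 to 0.706). The levels of the 14 neonatal cells are sums of UMIs, in which the Bhlhe41 cells (median 39036 UMIs) outweigh the Vpreb3 cells (median 12313). All 95 Vpreb3 UMIs lay in 6 of the 14 cells, and 906 of 907 S100a6 UMIs in the 7 Bhlhe41 cells. The fold of Vpreb3 therefore does not describe the Vpreb3 cells. Itgam, the gene of CD11b, was at 0 in the 14 cells. The cell with neither gene had 3807 Ighm UMIs of its 45515 and 723 of the 995 UMIs of the plasma cell list found in the 14 cells.

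Both kinds of neonatal cell had been chosen for holding at least 10 members, so their member levels are a description only. The Vpreb3 cells had the S phase genes at 3502 CPM and the mitosis genes at 20014 CPM, and the Bhlhe41 cells at 3151 and 10049 CPM. In the adult library the combination of Vpreb3 with neither Cr2 nor Fcer2a was found in 1 of 29 cells, against 6 of 14 in the neonatal library. The same combination was found in 7.46% of adult and 36.03% of neonatal cells with under 5 members. Rag1 and Il7r were at 0 in all 29 adult cells. The whole pre-B list of 7 genes was at only 2.64 CPM (87 UMIs) in adult cells with under 5 members, so this 0 is not informative. Bhlhe41 was present in 12 of 29 adult cells, 8 of which also held Cr2 or Fcer2a, and was at 32.3 CPM (21.1 to 47.3) against 22.0 CPM in cells with under 5 members. In the adult cells 2 of 8 B1 markers had an interval above 1 and 3 below, where 17.3% and 12.8% of all genes had one. All 6 follicular markers had an interval below 1 in the adult cells too, with a median of 0.398-fold against 0.172-fold in the neonatal cells. Of the 6 B lineage genes, 5 had an interval below 1 in the neonatal and 4 in the adult cells, and 1 above in each. Among germinal center markers, Rgs13 had 13 UMIs in the neonatal cells (6.67-fold, 3.41 to 12.0) and Bcl6 had 0 against 29.96 CPM in the others. In the adult cells Mef2b (11 UMIs, 8.71-fold), Rgs13 (10 UMIs, 4.77-fold) and Fas (18 UMIs, 4.10-fold) had intervals above 1 and Bcl6 (0.417-fold) below.

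**Figure D5:**
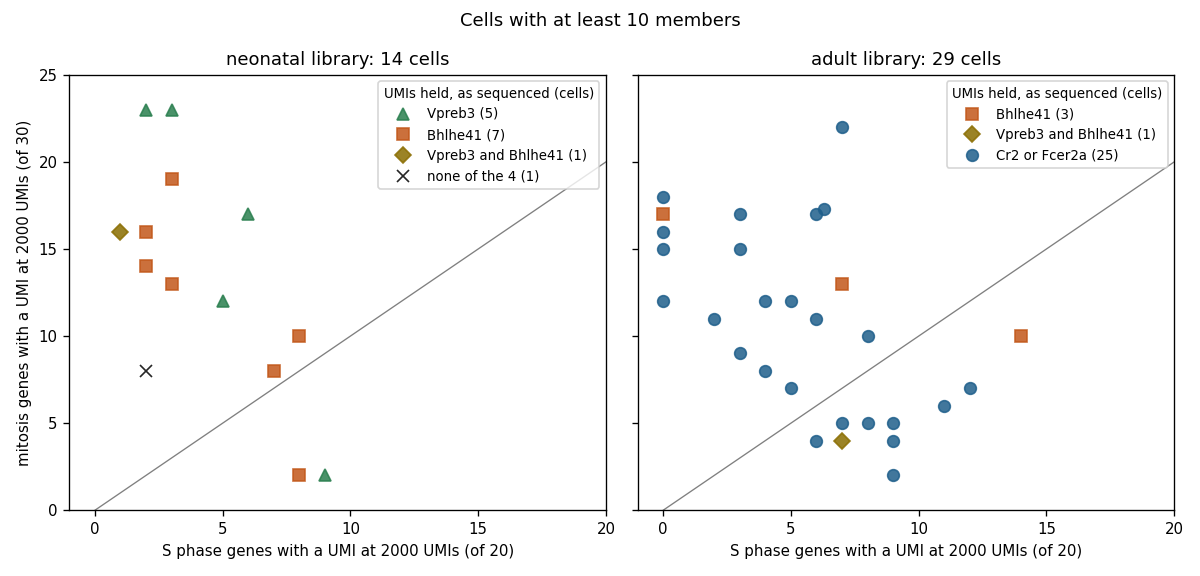
Each cell with at least 10 members by its number of S phase (x axis) and mitosis (y axis) genes at 2000 UMIs, marked by the subset genes held as sequenced, with equal numbers on the line (overlapping cells are shifted slightly). Neonatal cells hold Vpreb3 (5), Bhlhe41 (7), both (1) or none (1) and no Cr2 or Fcer2a, whereas 25 of 29 adult cells hold Cr2 or Fcer2a. Most adult cells with under 5 members, not shown, held either gene too.

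At the broader choice of at least 5 members, subset genes were counted at 2000 UMIs. Of the 37 neonatal cells, 27.0% (13.8 to 44.1%) held Vpreb3, 5.41% Cr2, 18.9% (7.96 to 35.2%) Fcer2a and 0 (up to 9.49%) Bhlhe41. The 0 of Bhlhe41 is that of 1 draw. Over draws a mean of 2.42 of these cells (6.54%) is expected to hold it, against 6.00% of neonatal cells with under 5 members. Of the 73 adult cells, 19.2% (10.9 to 30.1%) held Vpreb3, 23.3% (14.2 to 34.6%) Cr2, 24.7% (15.3 to 36.1%) Fcer2a and 5.48% (1.51 to 13.4%) Bhlhe41. In cells with under 5 members, the shares were 45.9, 5.49, 25.4 and 6.27% in the neonatal and 30.8, 18.5, 41.9 and 2.43% in the adult library. In the adult library the share with Fcer2a was thus smaller among cells with several members than among the others (40.3 to 43.6%), beyond the counting intervals, and those of Vpreb3 overlapped at both ages. The neonatal Fcer2a cells of this class had 5 to 9 members, the range that the 2 draws chose differently. The cells with at least 10 members were mostly of male mice by their transcripts: 11 of the 14 neonatal cells held a Y-linked UMI and no Xist UMI and 1 an Xist UMI alone, against 1279 and 323 of all 2077 neonatal cells. With cells of this male pattern alone, the summed log2 ratios were -0.08 for S phase and -0.27 for mitosis genes.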

How the data were processed

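Heart B cells of 2 ages were measured as 1 droplet library each. The authors aligned reads to mm10 and counted UMIs with Cell Ranger, version 3.0.2 per the file headers (the methods name another version). The annotation is not given in the sources used here. The deposited values are raw UMI counts per gene and barcode, not normalized and not filtered for cells. Rows of 3 antibodies were not used.

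From these counts, cells were chosen by the stated limits on UMIs, mitochondrial share and Cd79a, with 7 neonatal and 15 adult droplets just below the UMI limit (1500 to 2000) and 9 and 22 just above (2000 to 2500). Levels are summed UMIs over all gene UMIs of the cells. Ratios have exact conditional binomial, shares exact Clopper-Pearson and levels exact Poisson 95% intervals. Cells were thinned without replacement with a fixed random seed. A fold between cells of a library needs 20 UMIs for genes outside the list, and a count of 0 was set to a floor of 3. The free RNA profile came from barcodes of ranks 45000 to 90000. With 1 library per age no test was run. The tools were numpy 2.4.6, scipy 1.17.1, pandas 2.3.3 and matplotlib 3.10.9 under Python 3.11.15. Counts were also simulated for 10703 genes with the counting error that the intervals assume, so that the coverage checks the arithmetic only. The sign was recovered for 100% of changed genes, and the interval covered 95.5% of unchanged ones. The changes were of 1 or 2 in log2, a size that only Ccnb1 reached among the members, so smaller ratios were not checked.

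The members and all other lists were chosen with earlier results of these data known. All 50 members are named or counted within their role, and of other lists counts, medians and some of the genes with most UMIs are given. Further markers of the cells with at least 10 members, and the split of those cells by Vpreb3 and Bhlhe41, were chosen after their values were seen.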

Additional observations from a re-analysis of the deposited data

Results flagged for a closer look

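Some droplets that the comparisons did not use also held many members. Of 416 neonatal droplets with at least 2000 UMIs but over 10% mitochondrial UMIs, 5 held at least 10 members, 1.20% (exact 95% interval 0.391 to 2.78%). The floor of 3 counts would be 0.721% of them. In the adult library 3 of 505 such droplets held as many, 0.594%, which is the floor of 3 counts itself. In the cells used for the comparisons the shares were 0.674% (0.369 to 1.13%) and 0.803% (0.538 to 1.15%), and the intervals overlap those of the droplets left out.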

How the results depend on the processing

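With 1 library per age there is no replicate to leave out, and depth limits the genes with few UMIs, Cdc6 and Bub1 among them, and the 14 neonatal cells with at least 10 members. Over all alternatives, 614 of 748 single-member log2 ratios stayed within their counting interval and 24 whose interval left out 0 changed sign, and of 282 other values 186 stayed and 2 changed sign. Bub1 had no neonatal UMI left in 2 alternatives.

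Without the 2% of droplets with most UMIs the S phase genes, summed log2 ratio, was 0.12, the mitosis genes, summed log2 ratio, 0.12 and the mitosis genes, median log2 ratio, 0.26. Both mitosis values changed sign, as did Ccna2 (0.26), Cdk1 (0.28), Cenpf (0.12), Hmmr (0.47), Kif11 (0.25), Mki67 (0.67), Nusap1 (0.49) and Top2a (0.53), and the cause was not tested. At most 5% mitochondrial UMIs left 60 neonatal and 156 adult cells, with sums of -0.25 (S phase) and -1.43 (mitosis) and medians of -0.22 and -1.44. Dnmt1 (-0.15), Pclaf (-0.91), Rrm1 (-0.67) and Tk1 (-0.25) changed sign there. Male cells only gave sums of -0.078 and -0.27, with Pclaf at -0.22. The mean of each cell's share gave -0.095 and -0.16, median-of-ratios scaling 0.13 and -0.083, and leaving out the 5 members with most UMIs 0.046 and -0.40. Without droplets with 2 markers of another cell type the mitosis sum was -0.17. These alternatives were chosen after seeing the data: without cells with at least 10 members the sums were -0.10 and -0.082 and the mitosis median -0.13, and Ccna2 (0.17), Cdk1 (0.060), Nusap1 (0.18), Pclaf (-0.25), Plk1 (0.19) and Ube2c (0.65) changed sign. Without cells with at least 5 members the sums were -0.18 and -0.13 and the S phase genes, median log2 ratio, was -0.064, and Ccna2 (0.74), Dut (-0.016), Nusap1 (0.10), Pclaf (-0.52) and Ube2c (0.046) changed sign. With at most 5% mitochondrial UMIs, the fold past 2 among all genes, higher in the adult library, was met by 99 genes.

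The share of neonatal cells with several members and the share of adult cells with several members were 0.674% and 0.803% at 10 members, 15.6% and 13.0% at 3 members, 34.3% and 33.6% as sequenced, 0.722% and 0.997% thinned to 1000 UMIs, 0.862% and 0.956% with a minimum of 1000 UMIs as well, and 8.33% and 7.69% at most 5% mitochondrial UMIs. The adult share was 2.76% with a minimum of 5000 UMIs, and the neonatal share 1.08% without the 2% of droplets with most UMIs. The member level in cells with several other members, neonatal, median fold, and the member level in cells with several other members, adult, median fold, were 36.3 and 43.5 at 10 members, 7.49 and 12.2 at 3, 3.08 and 4.04 as sequenced and 11.2 and 24.5 at most 5% mitochondrial UMIs. The neonatal median was 37.5 with a minimum of 1000 UMIs and 17.5 without the deepest droplets. An alternative that changed the droplets also thinned cells with other random draws, so its values mix both.

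The subset genes of cells with several members were counted next. Here too, alternatives that changed the droplets also changed the random draws. Differences between such settings are therefore not effects of the choice of droplets alone. As sequenced, where 712 neonatal and 1213 adult cells held at least 5 members, Vpreb3, Cr2, Fcer2a and Bhlhe41 were in 69.0, 22.1, 50.4 and 25% of the neonatal and 62.0, 64.8, 78.5 and 24.1% of the adult cells. An alternative chosen after seeing the data kept the 14 neonatal and 29 adult cells with at least 10 members at 2000 UMIs. Only their subset genes were read as sequenced, which repeats values given above. Cr2, Fcer2a and Bhlhe41 were in 0, 0 and 57.1% of these neonatal cells, and all 4 in 55.2, 72.4, 58.6 and 41.4% of these adult cells. Thinned at 10 members, neonatal Cr2 and Fcer2a were at 0. At 3 members the value of the subset genes in cells with several members, adult, Vpreb3, was 32.98% and that of Fcer2a 42.6%. Thinned to 1000 UMIs, neonatal Cr2 and Fcer2a were at 0 and adult Cr2 and Fcer2a in 2.78 and 5.56%. With a minimum of 1000 UMIs, neonatal Cr2, Fcer2a and Bhlhe41 were in 0, 0 and 11.1% and the adult genes in 8.57, 8.57, 11.4 and 0%. With a minimum of 5000 UMIs, Cr2 was in 0% of neonatal and 11.9% of adult cells. At most 5% mitochondrial UMIs gave 0 for neonatal Vpreb3, Cr2 and Fcer2a and 25% for adult Bhlhe41. At most 20% gave 6.38% for neonatal Fcer2a and 12.5% for adult Cr2. At least 3 Cd79a UMIs gave 7.69% for neonatal Fcer2a and 12.8% for neonatal Bhlhe41. Male cells gave 0, 7.69 and 15.4% for neonatal Cr2, Fcer2a and Bhlhe41 and 10.9% for adult Cr2. Another random draw from the same droplets gave 15.4% for neonatal Bhlhe41, which was at 0 in the draw reported above. Without droplets with 2 markers of another cell type, neonatal Vpreb3 was in 47.2% and Cr2 in 0%, and without the deepest droplets neonatal Vpreb3 was in 59.1% and Bhlhe41 in 13.6%.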
